A study of Mus musculus with 6 samples.

Results

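The miR-148/miR-152 and miR-26 families were represented by 5 mature microRNAs of the mouse, mmu-miR-148a-3p, mmu-miR-148b-3p and mmu-miR-152-3p in one family and mmu-miR-26a-5p and mmu-miR-26b-5p in the other (the prefix mmu- is left out below). They were taken by name from the deposited tables and make up 5 of the 1964 mature microRNAs (miRNAs) and of the 16310 RNAs listed. The tables hold small RNA libraries of exosomes, membrane vesicles shed by cells into the culture medium. The ESC group comprised 3 libraries of exosomes from cultured epidermal stem cells, taken as rapidly adhering cells from the dorsal skin of 3-week-old C57BL/6 mice in telogen and grown in serum-free keratinocyte medium. The Fb group comprised 3 libraries of exosomes from cultured dermal fibroblasts, taken from the dorsal skin of 14-week-old db/db mice, a diabetic strain that lacks a working leptin receptor, and grown with fetal bovine serum before a change to serum-free medium for collection. The strain label reads C57BL/6 for both groups, and cells of both were at passage 0 or 1. Cell type, donor genotype, donor age and medium therefore differed together between ESC and Fb exosomes and cannot be told apart.

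A miRNA silences messenger RNAs that pair with its seed, bases 2 to 8 from its 5′ end, so miRNAs with one seed are treated as a family with shared targets. The miR-148/miR-152 family is known for repressing DNA methyltransferases, among them DNMT1, in human cells. The miR-26 family is known for repressing Ezh2, the histone methyltransferase of Polycomb complex PRC2, a role described in mouse muscle cells. Members of a family come from separate genes, and their levels can therefore differ between cell types.

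The mature sequences below, from RefSeq on build GRCm38.p6, show what separates the members, with the seed in capitals.
miR-148a-3p: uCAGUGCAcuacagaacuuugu
miR-148b-3p: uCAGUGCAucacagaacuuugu
miR-152-3p: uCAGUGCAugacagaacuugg
miR-26a-5p: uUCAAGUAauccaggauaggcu
miR-26b-5p: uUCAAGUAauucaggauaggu

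The seed CAGUGCA occurred in 3 of the 1679 mature mouse miRNAs with a RefSeq sequence, and the seed UCAAGUA in 2, in each case the family members alone. Counted from the 5′ end, miR-148b-3p differed from miR-148a-3p by C9U and U10C. The substitutions that set miR-152-3p apart from miR-148a-3p were C9U, U10G and U20G, and those that set it apart from miR-148b-3p were C10G and U20G. In the other family miR-26b-5p differed from miR-26a-5p by C11U and C21U. All of these lie 3′ of the seed, and each pair was identical at 18 or more of the 21 or 22 positions compared. How reads matching several miRNAs were divided is not given in the sources used here, so the split between such close relatives depends on a step that cannot be examined here.

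The 5 mature miRNAs arise from 6 hairpin genes. Mir152, on the plus strand of chromosome 11 (mature bases chr11:96850439-96850459), lies in an intron of Copz2, and Mir148b, on the plus strand of chromosome 15 (chr15:103285185-103285206), lies in an intron of Copz1. Both hosts encode zeta subunits of the COPI vesicle coat. Mir148a, on the minus strand of chromosome 6 (chr6:51269829-51269850), overlaps no other annotated gene. Mir26b lies in an intron of Ctdsp1 (plus strand, chr1:74394324-74394344) and Mir26a-1 in an intron of Ctdspl (plus strand, chr9:119031811-119031832). Mir26a-2 overlaps an annotated exon of Ctdsp2 (plus strand, chr10:126995543-126995564). These hosts encode small C-terminal domain phosphatases. Mir26a-1 and Mir26a-2 give the same mature miR-26a-5p, so its value is the sum of both genes.

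Assigned reads numbered 9894485 to 11149046 in the ESC libraries and 6914504 to 8691350 in the Fb libraries. Mature miRNAs took 14.0% ± 0.710 of them in ESC and 1.46% ± 0.751 in Fb exosomes (SD, n = 3 each), so the scale bears on every level below. Of the Fb libraries, replicate 1 had the fewest miRNA reads, 49019, against 177990 and 118748 in replicates 2 and 3, and 1 read there equals 20.4 CPM (counts-per-million of mature miRNA reads). The floor of 3 reads, below which a level was not read as measured, stood at 1.97 to 2.15 CPM for the ESC libraries and at 16.9 to 61.2 CPM for the Fb libraries. Intervals and floors cover the counting error of reads within a library only, and not the spread between libraries. The reads carry no molecular identifiers, so amplification copies cannot be told from separate molecules. All 6 epithelial markers, among them miR-205-5p and miR-203-3p, were higher in ESC exosomes, summing to 57491 to 71350 CPM there against 7273 to 13697 CPM in the Fb libraries. All 5 mesenchymal markers, among them miR-143-3p and miR-214-3p, had higher means in Fb exosomes, and summed to 128 to 209 CPM in the ESC libraries against 106305 to 180838 CPM in the Fb libraries. Of these, miR-199a-3p was uneven, at 97733, 3.80 and 17256 CPM in Fb replicates 1 to 3. In ESC replicates 1 to 3 it had 0, 72.5 and 49.9 CPM, so its groups overlapped. How reads were divided between miR-199a-3p and miR-199b-3p, one of the 3 most abundant miRNAs, is not given. The values of miR-199a-3p and the mesenchymal sums therefore depend on a step that cannot be examined here. Markers of other cell types summed to 466 to 1714 CPM (3 muscle miRNAs), 109 to 347 CPM (2 endothelial) and 19.7 to 75.8 CPM (4 blood-cell) in Fb libraries, against 123 to 161, 77.1 to 120 and 0.718 to 3.28 CPM in ESC libraries. Of the 84 muscle reads in Fb replicate 1, 53 were miR-1a-3p, which had 1 and 0 reads in Fb replicates 2 and 3. The endothelial sums rest mostly on miR-126a-5p, as miR-126a-3p had at most 6 reads in any library. The blood-cell sums rest on 2, 3.5 and 9 reads in Fb replicates 1 to 3. In ESC replicates 1 to 3 they rest on 1, 2 and 5 reads, so the groups cannot be compared for them. Of the markers of other cell types, miR-142a-3p and the pigment-cell miR-211-5p were at 0 in all 6 libraries. The liver and serum miRNA miR-122-5p had 9 to 11 reads (6.09 to 7.90 CPM) in the ESC libraries and 0 to 1 read in the Fb libraries, under the floor there, so the groups cannot be compared for it. What part other cells, serum or epithelial RNA in the Fb exosomes had in the members' levels was not tested.

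Relative to mature miRNA reads, miR-152-3p was 6.20-fold higher in Fb exosomes by mean CPM, while its same-seed relative miR-148a-3p and, in the other family, miR-26a-5p were higher in ESC exosomes. Thus 2 of the 5 members passed as higher in ESC, where 21.8% of the 325 miRNAs tested did, and 1 passed as higher in Fb, where 27.7% did. In either direction 49.5% of all tested miRNAs passed, so a call by itself was common. miR-148b-3p and miR-26b-5p did not pass. These calls came from the quasi-likelihood test of edgeR, with p adjusted by Benjamini-Hochberg over the 325 miRNAs and a threshold of 0.05, and the median log2 fold change of ESC over Fb was -0.11. That test rescaled libraries by factors (TMM) of 0.838 to 0.905 in ESC and 1.03 to 1.34 in Fb libraries. The CPM of the members were not rescaled, so folds of mean CPM can differ from the log2 fold changes. In CPM, the same 3 members had groups that did not overlap, as 60.9% of the tested miRNAs did, 24.9% with every ESC library higher and 36.0% with every Fb library higher. The labels do not say which animals gave which library, and a p-value here reflects only how far the 6 libraries spread. In bulk exosomes fewer vesicles carrying a miRNA and less of it per vesicle cannot be told apart.

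miR-152-3p had 543, 557 and 494 CPM in ESC replicates 1 to 3, against 1875, 4702 and 3309 CPM in Fb replicates 1 to 3. Every Fb library was above every ESC library, and the lowest Fb value belonged to the shallow replicate 1. The log2 fold change of ESC over Fb was -2.29 (SE 0.46, adjusted p = 0.00595), and 66 of the 325 tested miRNAs had a lower one. By abundance within a library miR-152-3p ranked 92nd or 93rd in the ESC libraries and between 34th and 62nd in the Fb libraries. It passed in the same direction under each of the 16 other settings tried, and without Fb replicate 1 the log2 fold change was -2.54 (adjusted p = 1.48e-04).

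miR-148a-3p, the most abundant miRNA of its family in every library, had 12699, 12346 and 12307 CPM in ESC replicates 1 to 3, against 3896, 7573 and 8252 CPM in Fb replicates 1 to 3. All ESC libraries were above all Fb libraries, and they lay close together at 12450 ± 216 CPM, against 6574 ± 2344 CPM in Fb (SD, n = 3 each). The log2 fold change was 1.28 (SE 0.40, adjusted p = 0.0340). With library totals as the only scaling the value was 0.92 (adjusted p = 0.0590), or 0.74 (adjusted p = 0.169) with the 3 most abundant miRNAs left out of them, and the call was also lost without ESC replicate 3 or Fb replicate 3 (adjusted p = 0.0685 and 0.132).

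miR-148b-3p, the scarcest of the family in Fb exosomes, had 742, 818 and 686 CPM in ESC replicates 1 to 3, against 20.4, 787 and 514 CPM in Fb replicates 1 to 3. The groups overlapped, since Fb replicate 2 lay within the ESC range. The value of Fb replicate 1 rests on 1.00 read (exact Clopper-Pearson 95% interval 0.516 to 114 CPM). That interval lay below those of Fb replicate 2 (662 to 928 CPM) and Fb replicate 3 (393 to 660 CPM). The Fb libraries thus differed by more than counting error, and the cause was not tested. The log2 fold change was 1.01 (SE 0.85, adjusted p = 0.357), with 0.57 (SE 0.28, adjusted p = 0.118) without that library. With the count filter a difference in miR-148b-3p between ESC and Fb exosomes was not detected in these libraries. Without that filter the value was 1.49 (adjusted p = 0.0164 by edgeR). That setting also moved the median log2 fold change to 1.31 over 968 miRNAs, against -0.11 with the filter, so 1.49 was near the median there.

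**Figure D1:**
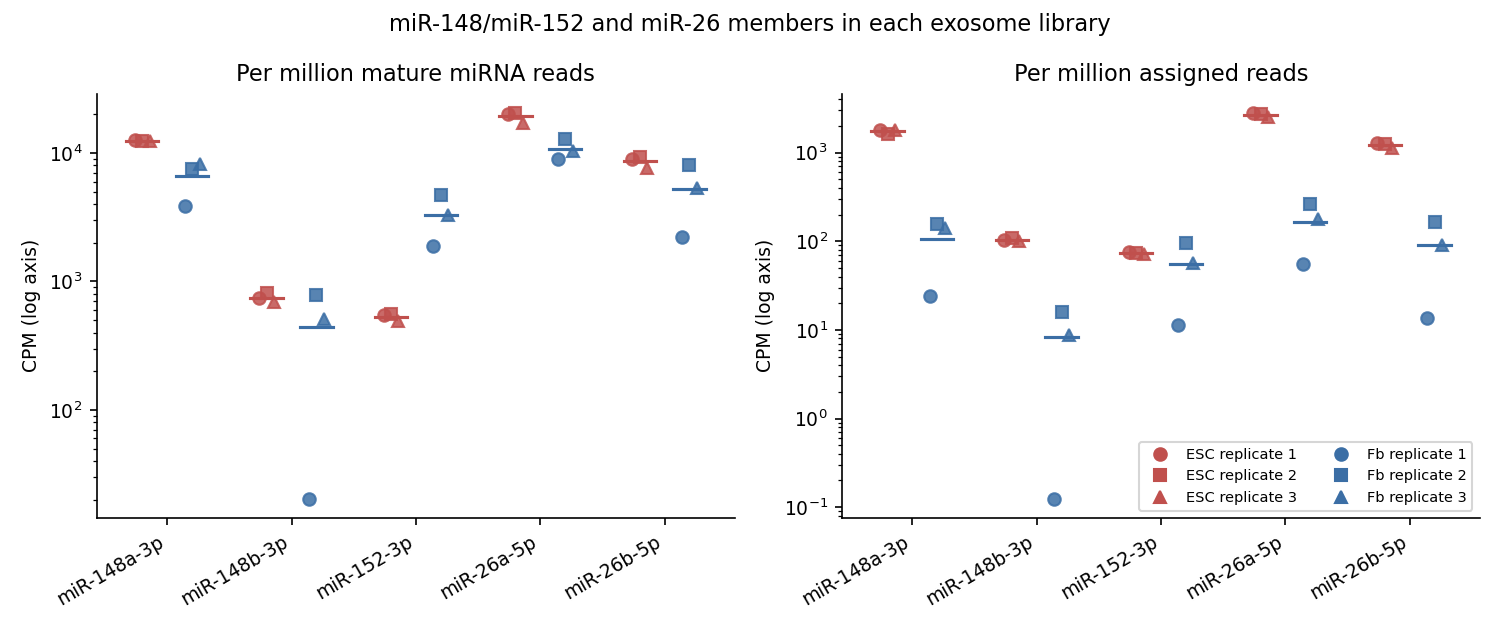
Level of each member in CPM of mature miRNA reads (left) and in CPM of all assigned reads (right), on log axes, for 3 ESC and 3 Fb libraries, with bars at group means. On the left miR-152-3p is the member whose Fb libraries (1875 to 4702 CPM) all lie above the ESC libraries (494 to 557 CPM), and on the right its groups overlap while those of the other 4 members do not.

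The make-up of the miR-148/miR-152 family, which needs no scaling between libraries, differed most through miR-152-3p. It supplied 3.89%, 4.06% and 3.66% of family reads in ESC replicates 1 to 3, against 32.4%, 36.0% and 27.4% in Fb replicates 1 to 3. miR-148a-3p supplied 90.7% ± 0.644 in ESC and 64.5% ± 5.70 in Fb exosomes, and miR-148b-3p 5.45% ± 0.455 and 3.55% ± 2.90 (SD, n = 3 each). miR-148a-3p was thus the largest share in all 6 libraries, and miR-152-3p was the smallest in every ESC library and the second in every Fb library.

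**Figure D2:**
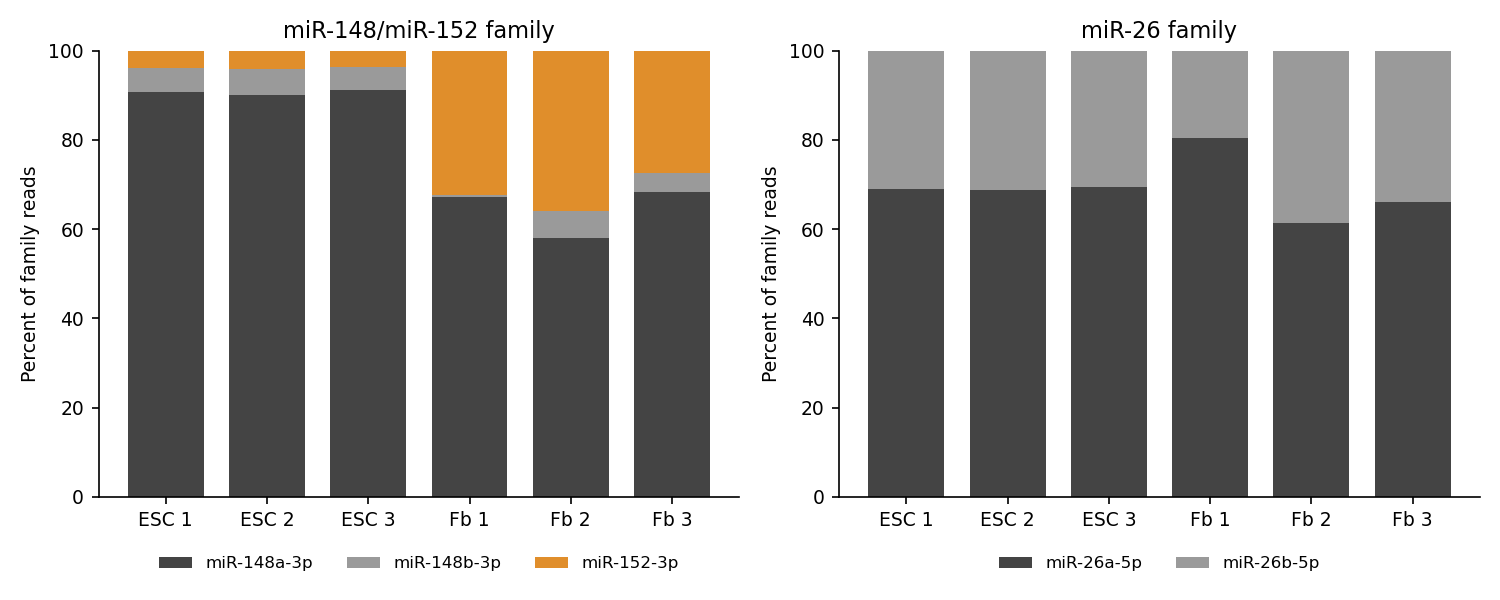
Percent of family reads from each member in each ESC and Fb library, for the miR-148/miR-152 family (left) and the miR-26 family (right). miR-152-3p takes 3.66% to 4.06% in the ESC libraries and 27.4% to 36.0% in the Fb libraries, while miR-26a-5p takes about the same mean share in both groups (69.0% in ESC and 69.3% in Fb) with a wider spread in Fb.

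The ratio of miR-152-3p to miR-148a-3p reads was 0.0428, 0.0451 and 0.0402 in ESC replicates 1 to 3, against 0.481, 0.621 and 0.401 in Fb replicates 1 to 3. It was 11.6-fold higher in Fb exosomes by geometric means, with a log2 ratio of -4.55 ± 0.08 in ESC and -1.02 ± 0.32 in Fb (SD, n = 3 each), and the groups did not overlap. The exact two-sided permutation test gave p = 0.1, the smallest that 3 against 3 libraries allow, and 0.2 adjusted over the 4 ratios compared, so the design could not pass a threshold of 0.05. Leaving out any 1 library kept the log2 difference between -3.68 and -3.37.

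The ratio of miR-152-3p to miR-148b-3p was 0.733, 0.681 and 0.720 in ESC replicates 1 to 3, against 91.9, 5.97 and 6.44 in Fb replicates 1 to 3. In the ESC libraries miR-152-3p was thus the scarcer of the pair, and in the Fb libraries the more abundant. The log2 difference of ESC minus Fb was -4.42, again without overlap (exact permutation p = 0.1, adjusted 0.2). Without Fb replicate 1, in which miR-148b-3p had a single read, it was -3.12.

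For the 2 miR-148 miRNAs against each other no direction can be given. The ratio of miR-148a-3p to miR-148b-3p was 17.1, 15.1 and 17.9 in ESC replicates 1 to 3, against 191, 9.62 and 16.0 in Fb replicates 1 to 3, and the groups overlapped. The log2 difference was -0.89 (exact permutation p = 0.9, adjusted 1) and took the opposite sign, 0.42, without Fb replicate 1.

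**Figure D3:**
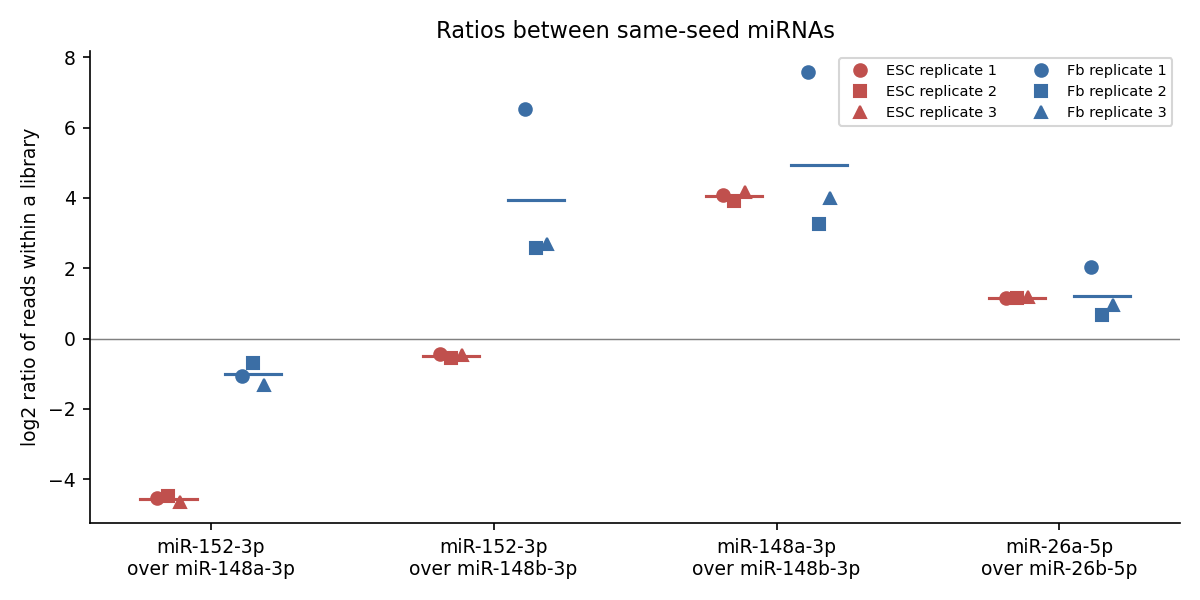
Log2 ratios between same-seed miRNAs within each library, with bars at group means of 3 ESC and 3 Fb libraries. Both ratios of miR-152-3p are higher in every Fb library than in any ESC library, whereas the groups overlap for miR-148a-3p over miR-148b-3p and for miR-26a-5p over miR-26b-5p.

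Per miRNA read, the total of the miR-148/miR-152 family was 1.33-fold higher in ESC exosomes by means, and per assigned read it was 11.3-fold higher. The 3 miRNAs together made up 1.40%, 1.37% and 1.35% of miRNA reads in ESC replicates 1 to 3, against 0.579%, 1.31% and 1.21% in Fb replicates 1 to 3. The groups did not overlap, but Fb replicates 2 and 3 lay just below the ESC libraries. The summed reads had a log2 fold change of 0.87 (SE 0.41, adjusted p = 0.118 by edgeR), which did not pass, and 0.50 (SE 0.17, adjusted p = 0.0361) without Fb replicate 1.

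In the miR-26 family both members had higher means in ESC exosomes, and only miR-26a-5p passed. miR-26a-5p had 20029, 20579 and 17245 CPM in ESC replicates 1 to 3, against 9003, 12855 and 10406 CPM in Fb replicates 1 to 3. It was the most abundant of the 5 members in every library, and the groups did not overlap. The log2 fold change was 1.22 (SE 0.31, adjusted p = 0.0154 by edgeR), though the call was lost without Fb replicate 3 (1.21, adjusted p = 0.135) and with library totals that leave out the 3 most abundant miRNAs (0.68, adjusted p = 0.110).

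miR-26b-5p had 9040, 9328 and 7598 CPM in ESC replicates 1 to 3, against 2203, 8118 and 5314 CPM in Fb replicates 1 to 3. Fb replicate 2 lay above the lowest ESC library, so the groups overlapped. The log2 fold change of 1.06 (SE 0.53, adjusted p = 0.133 by edgeR) did not pass, but the same direction passed without Fb replicate 1 (0.74, adjusted p = 0.0364), without Fb replicate 2 (1.79, adjusted p = 0.0423) and with DESeq2 (1.20, adjusted p = 0.0498).

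The ratio of miR-26a-5p to miR-26b-5p was 2.22, 2.21 and 2.27 in ESC replicates 1 to 3, against 4.09, 1.58 and 1.96 in Fb replicates 1 to 3. Fb values lay on both sides of the narrow ESC range. The log2 difference was -0.06 (exact permutation p = 1), and leaving out a library moved it between -0.34 and 0.34. With log2 ratios of 1.16 ± 0.02 in ESC and 1.22 ± 0.72 in Fb (SD, n = 3 each), the spread of the Fb libraries leaves a shift between the pair unresolved. As a family miR-26 made up 2.91%, 2.99% and 2.48% of miRNA reads in ESC replicates 1 to 3, against 1.12%, 2.10% and 1.57% in Fb replicates 1 to 3. The summed reads were higher in ESC exosomes (log2 fold change 1.27, SE 0.36, adjusted p = 0.0232 by edgeR), a call that was lost without any one of ESC replicates 1 to 3 or Fb replicate 3.

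**Figure D4:**
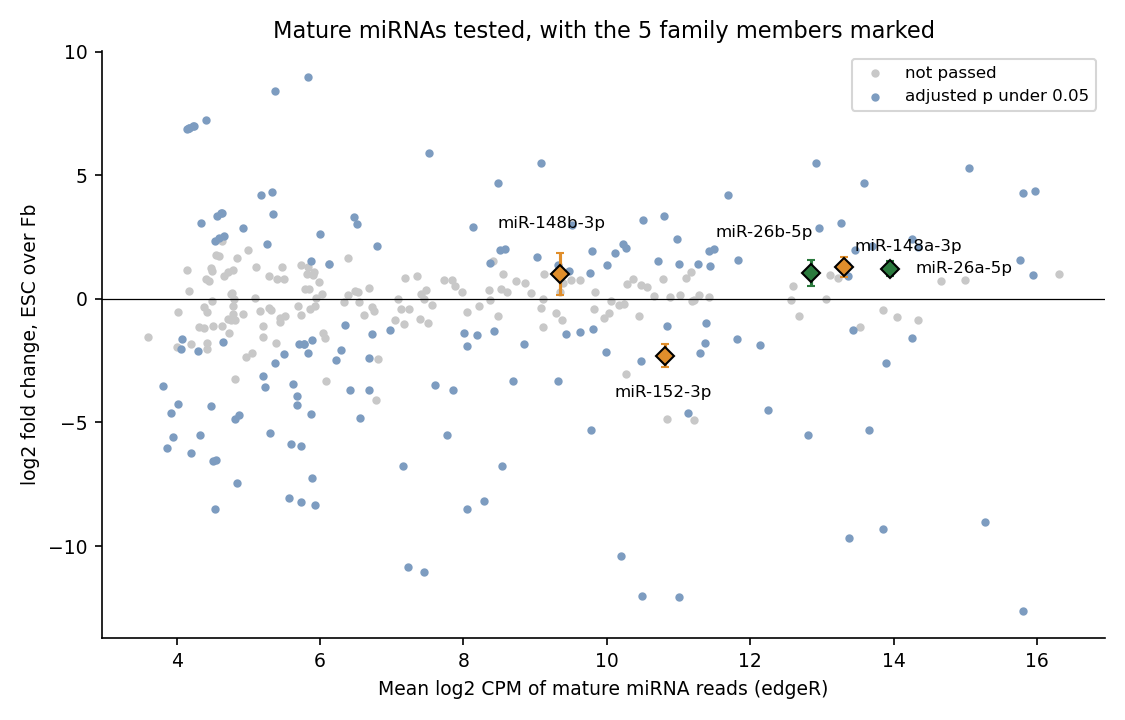
Log2 fold change of ESC over Fb against mean log2 CPM for the 325 mature miRNAs tested, with those at an adjusted p under 0.05 in blue, and the miR-148/miR-152 members (orange diamonds) and miR-26 members (green diamonds) with their standard errors. The diamonds of miR-148a-3p, miR-148b-3p, miR-26a-5p and miR-26b-5p lie between 1.01 and 1.28, and that of miR-152-3p lies at -2.29.

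Relative to all assigned reads, of which miRNAs were a smaller part in Fb libraries, miR-152-3p did not separate the groups and the other 4 members were 12.5-fold to 16.3-fold higher in ESC exosomes. miR-148a-3p had 1788, 1638 and 1807 CPM of all assigned reads in ESC replicates 1 to 3, against 23.9, 155 and 142 in Fb replicates 1 to 3, a 16.3-fold higher mean in ESC. miR-26a-5p had 2819, 2730 and 2531 in ESC replicates 1 to 3, against 55.2, 263 and 179 in Fb replicates 1 to 3, also 16.3-fold. The fold was 12.5 for miR-148b-3p and 13.4 for miR-26b-5p, and for these 4 members the groups did not overlap. Without Fb replicate 2 the log2 ratio of mean shares was 4.54 for miR-148b-3p and 4.53 for miR-26b-5p, against 3.64 and 3.74 with all libraries. Over all omissions of 1 library it was 3.07 to 4.54 for miR-148b-3p, 3.23 to 4.53 for miR-26b-5p, 3.55 to 4.40 for miR-148a-3p and 3.61 to 4.53 for miR-26a-5p. On this scale the groups did not overlap for 85.2% of the 325 miRNAs, with every ESC library higher for 74.8% and every Fb library higher for 10.5%, so that separation was the usual case.

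miR-152-3p was outside that pattern, with 76.5, 73.9 and 72.5 CPM of all assigned reads in ESC replicates 1 to 3, against 11.5, 96.3 and 56.8 in Fb replicates 1 to 3. Here Fb replicate 2 was the highest of all 6 libraries and Fb replicate 1 the lowest. The means of 74.3 ± 2.02 in ESC and 54.9 ± 42.4 in Fb (SD, n = 3 each) differed by less than the spread of the Fb libraries (exact permutation p = 0.7, also after adjustment over the 14 shares compared). Without Fb replicate 1 the log2 ratio of the means was -0.04. Of the other 13 shares, 11 gave p = 0.1 (adjusted 0.127), and those of miR-148b-3p and miR-26b-5p in miRNA reads gave exact permutation p = 0.3 and 0.2 (adjusted 0.323 and 0.233).

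In an edgeR fit of all RNAs, 0 of the 5 members passed. Of the 2999 RNAs tested 11.8% did (3.63% higher in ESC and 8.17% in Fb), and of the 307 miRNAs among them 22.5% did (17.3% higher in ESC and 5.21% in Fb). The log2 fold changes were 1.70 for miR-148a-3p, 1.13 for miR-148b-3p, -1.99 for miR-152-3p, 1.68 for miR-26a-5p and 1.27 for miR-26b-5p, with standard errors of 1.29 to 1.46 and adjusted p of 0.434 to 0.742. None had an unadjusted p under 0.05 (0.155 to 0.457), and DESeq2 called 0 of them too. Without Fb replicate 1, miR-152-3p passed in this fit (-2.56, adjusted p = 0.0207) and the other 4 members did not. This fit rescales libraries by factors (TMM) taken from RNAs of all classes. With library totals as the only scaling it gave 4.03 for miR-148a-3p (adjusted p = 0.00726), 4.02 for miR-26a-5p (adjusted p = 0.00418), 3.74 for miR-26b-5p (adjusted p = 0.0159), 3.64 for miR-148b-3p, which did not pass (adjusted p = 0.0790), and, with the opposite sign, 0.44 for miR-152-3p (adjusted p = 0.809). That scaling moved the median of all RNAs to 0.81, against 0.07. miR-152-3p was thus lower in ESC exosomes relative to other miRNAs, while its sign relative to all reads depended on the scaling.

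The opposite arms of the member hairpins gave a second reading of the miR-148/miR-152 genes, because each comes from the same precursor as its member. Their sequences are not those of the members, so reads cannot be shared between the arms.
miR-148a-5p: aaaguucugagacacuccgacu
miR-148b-5p: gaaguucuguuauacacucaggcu
miR-152-5p: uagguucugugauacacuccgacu

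miR-152-5p had 17, 14.9 and 30 reads in ESC replicates 1 to 3, against 12, 32 and 36 reads in Fb replicates 1 to 3, from far fewer miRNA reads in Fb. As a level it was 14.0 ± 5.05 CPM in ESC exosomes, against 243 ± 61.7 CPM in those of Fb (SD, n = 3 each). Its log2 fold change of -3.69 (SE 0.44, adjusted p = 6.36e-04 by edgeR) had the direction of miR-152-3p and passed under all other settings tried. miR-148a-5p, with 110, 98 and 152 reads in ESC replicates 1 to 3 and 16, 22 and 22 reads in Fb replicates 1 to 3, had a log2 fold change of -0.86 (SE 0.39, adjusted p = 0.104), opposite in sign to that of miR-148a-3p. miR-148b-5p, at 9 to 13.8 reads in ESC and 3 to 4 reads in Fb libraries, was higher in Fb (log2 fold change -1.61, SE 0.52, adjusted p = 0.0378), a call lost under 8 of the 12 other settings that could test it. The opposite arms of this family thus all had negative log2 fold changes, and that sign was not particular to miR-152-5p.

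The miR-148a-5p arm made up 0.618%, 0.534% and 0.805% of the reads of both arms in ESC replicates 1 to 3, against 7.73%, 1.61% and 2.20% in Fb replicates 1 to 3. All Fb libraries were above all ESC libraries (exact permutation p = 0.1, adjusted 0.2 over 2 arms compared). For miR-152-5p the shares were 2.20%, 1.78% and 3.83% in ESC replicates 1 to 3, against 11.5%, 3.68% and 8.39% in Fb replicates 1 to 3, and the groups overlapped (exact permutation p = 0.2, adjusted 0.2). Fb replicate 1, with the fewest miRNA reads, had the highest share of the opposite arm for both. The share of miR-148b-5p, which was not tested, was 0.863%, 0.901% and 1.31% in ESC replicates 1 to 3. In Fb replicates 1 to 3 it was 75%, 2.77% and 4.68%, resting on 3, 4 and 3 reads of that arm.

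The miR-26 opposite arms were nearly undetected. miR-26a-1-3p had at most 1 read in any library, miR-26a-2-3p at most 3 and miR-26b-3p at most 5, so they were not tested. The hairpin rows of mir-148a, mir-148b and mir-152 held under 0.2 reads in every library, and mir-26b at most 1.51. The row of mir-26a-1 held 4.01, 62 and 0.0928 reads in ESC replicates 1 to 3, against 2.67, 16 and 5.33 reads in Fb replicates 1 to 3. The row of mir-26a-2 held 0.00742, 63 and 0.0928 reads in ESC replicates 1 to 3, against 2.33, 16 and 5.67 reads in Fb replicates 1 to 3. Both rows were thus near-equal in 5 libraries and differed in ESC replicate 1, and neither says which gene gave the mature miR-26a-5p.

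For context, the miRNAs reported to repress the same enzymes were read from lists. Of the 6 other miRNAs linked to DNA methyltransferases in human cells, all were tested, 4 were higher in Fb and 0 in ESC exosomes, with a median log2 fold change of -2.36 against -0.11 over all tested miRNAs, of which 27.7% were higher in Fb and 21.8% in ESC. They were miR-29a-3p (358 ± 61.6 CPM in ESC and 10255 ± 4809 CPM in Fb; log2 fold change -4.51, adjusted p = 7.19e-04), miR-29b-3p (-2.24, adjusted p = 0.0140), miR-342-3p (-2.47, adjusted p = 0.00334) and miR-143-3p (-9.03, adjusted p = 7.31e-06), which is also a mesenchymal marker. miR-29c-3p (-1.40, adjusted p = 0.154) and miR-185-5p (0.66, adjusted p = 0.311) did not pass. The call of miR-29b-3p was lost without Fb replicate 2 (adjusted p = 0.0644), and miR-29c-3p passed without Fb replicate 1 (-1.75, adjusted p = 0.00163). The direction of miR-152-3p was that of these 4 miRNAs, and the direction of miR-148a-3p was the opposite one.

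Of the 8 other miRNAs linked to Ezh2 in human or mouse cells, 7 were tested, 2 were higher in ESC and 2 in Fb exosomes, with a median log2 fold change of 0.49. With 21.8% and 27.7% of all tested miRNAs called in those directions, these counts are near the background. let-7b-5p (1.57, adjusted p = 0.00163) and let-7c-5p (0.97, adjusted p = 0.0198) were higher in ESC exosomes, as miR-26a-5p was. miR-101a-3p (-1.10, adjusted p = 0.0172) and the mesenchymal marker miR-214-3p (-10.40, adjusted p = 1.18e-04) were higher in Fb exosomes. The 3 others tested, miR-101b-3p (0.49), let-7a-5p (1.09) and miR-138-5p (-2.17), did not pass, with adjusted p of 0.401, 0.129 and 0.0504. The call of miR-101a-3p was lost under 8 of the 16 other settings and that of let-7c-5p under 4, among them the fit without Fb replicate 3, while let-7a-5p passed without Fb replicate 1 (1.89, adjusted p = 0.00287) and miR-138-5p without Fb replicate 2 (-2.31, adjusted p = 0.0393).

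The tested miRNAs whose pattern over the 6 libraries was most like each member were found by the root mean square (RMS) difference of log2 CPM after centring each miRNA. The 3 nearest to miR-152-3p were miR-149-5p (0.215), miR-872-5p (0.221) and miR-378a-5p (0.360), with log2 fold changes of -2.06, -1.90 and -2.12. Nearest to miR-148a-3p were miR-21a-5p (0.147), miR-196a-5p (0.151) and miR-6944-3p (0.203), and nearest to miR-26a-5p were miR-196a-5p (0.144), miR-30a-5p (0.151) and miR-421-3p (0.164). For miR-26b-5p they were miR-708-5p (0.178), miR-34a-5p (0.190) and miR-30a-3p (0.20). For miR-148b-3p they were miR-330-3p (0.407), miR-676-5p (0.536) and miR-34b-5p (0.617), but all 3 had 0 reads in Fb replicate 1, where miR-148b-3p had 1 read, all under the floor of 3 reads. Over the other 5 libraries, an alternative added after the data were seen, the nearest to miR-148b-3p was miR-26b-5p (0.0914), and miR-330-3p ranked 47th. The distance of miR-148a-3p to miR-148b-3p was 1.32 over 6 libraries and 0.323 over those 5. To miR-26b-5p it was 0.297 over 6 and 0.282 over 5, so these distances were close only over 5 libraries. The distance of miR-148a-3p to miR-152-3p was 1.77 over 6 libraries and 1.75 over 5, so that distance did not rest on Fb replicate 1. miR-6944-3p and miR-378a-5p also had 1 read in Fb replicate 1, and without that library each ranked 12th for its member. The nearest miRNA changed for the other members too over those 5 libraries. It became miR-23a-3p (0.183) for miR-152-3p, let-7c-5p (0.0858) for miR-148a-3p, miR-34a-5p (0.0693) for miR-26a-5p and miR-148b-3p (0.0914) for miR-26b-5p. The libraries share depth and composition, so these distances are a description.

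**Figure D5:**
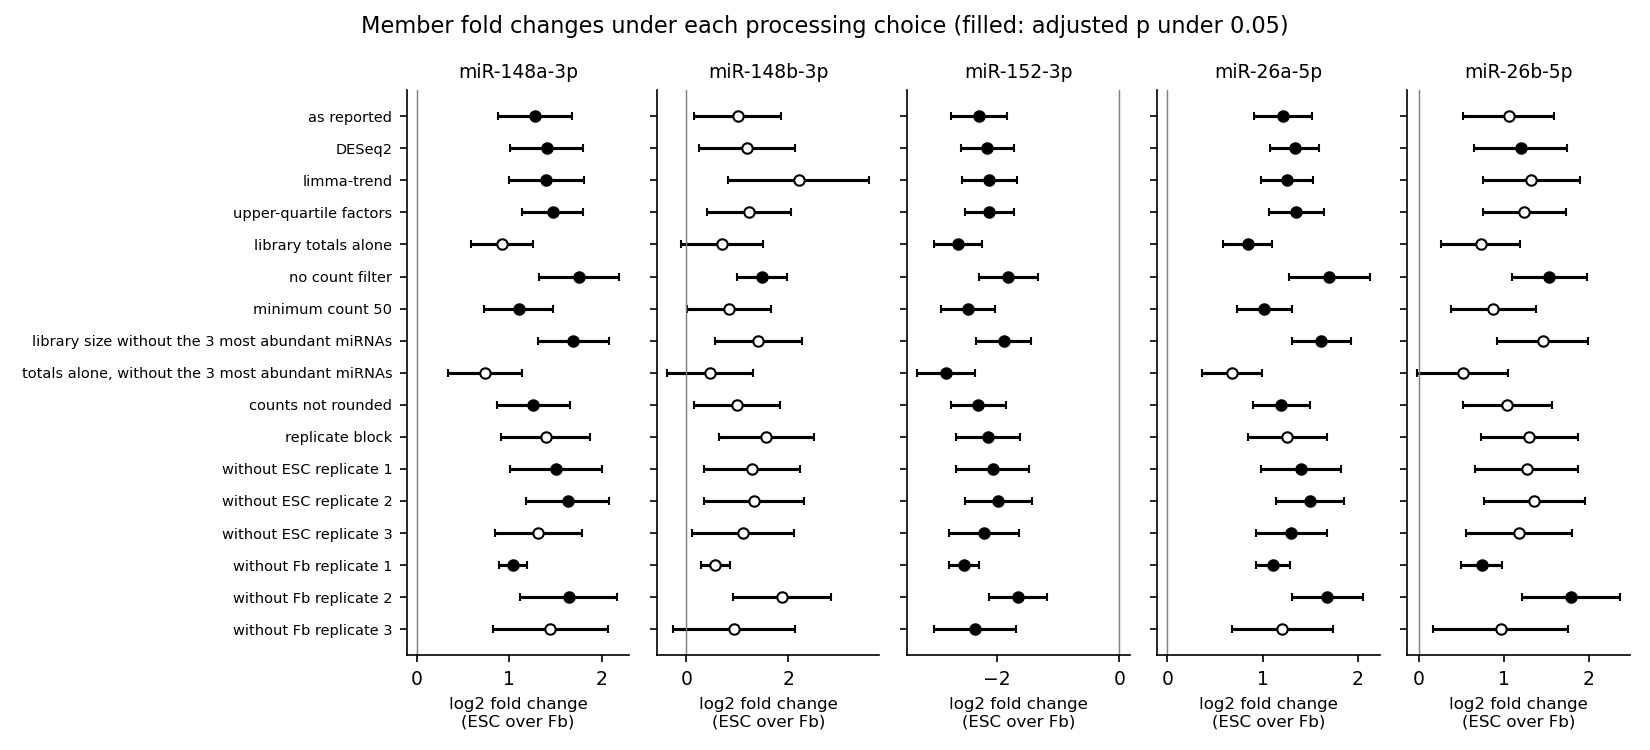
Log2 fold change of ESC over Fb among mature miRNAs for each member as reported and under 16 other settings, with standard errors and with a separate horizontal axis for each member. Filled points have an adjusted p under 0.05, and miR-152-3p is filled and below 0 in every row, while each of the other 4 members is filled in some rows and open in others.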

How the data were processed

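Small RNA was measured in exosomes of 3 ESC and 3 Fb cultures, grouped by sample title. Per the labels' protocols, vesicles were filtered, concentrated and ultracentrifuged, and CleanTag libraries were cut from a gel by size. The submitters' processing notes name FastQC, cutadapt and build GRCm38. Aligner, counter and strand setting are not stated there. The authors deposited estimated counts per RNA, of which 82.6% to 92.2% of nonzero values in a library were fractional. Count models used these values rounded to integers. Depth is given with the results.

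ESC and Fb libraries were compared by the quasi-likelihood test of edgeR 4.0.16 (R 4.3.3) with group as the only term, once on mature miRNAs and once on all RNAs. Scaling was by TMM, filterByExpr removed low rows (minimum count 10, minimum total 15), and p was adjusted by Benjamini-Hochberg with a threshold of 0.05. All 5 members passed the filter in both. Standard errors are the log2 fold change over the root of its F statistic. Family sums replaced their members in a fit of 322 miRNAs. For ratios and shares the test was an exact permutation over libraries, two-sided (scipy 1.17.1). The fits were also run on simulated counts with the same variability for every RNA. That run does not measure error rates in the present libraries.

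The members, lists and rule for named RNAs were chosen with earlier results of these data known. The rule took the members, their opposite arms and hairpins, 2 lists tied to the same enzymes, cell type markers and the 3 miRNAs most like each member (prior count 2). Alternatives were DESeq2 1.42.0, limma-trend (limma 3.58.1), other scalings and count filters, counts not rounded, a pseudocount of 5 reads for ratios, a replicate block, and omission of each library in turn. Library totals without the 3 most abundant miRNAs, the opposite-arm test and the likeness without Fb replicate 1 were added after the data were seen. Exon and intron positions came from GENCODE M21.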

Additional observations from a re-analysis of the deposited data

How the results depend on the processing

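Among mature miRNAs, miR-152-3p kept its direction and passed under all 16 other settings, with log2 fold changes of -2.54 to -1.66 when a library was left out. That range was 1.04 to 1.64 for miR-148a-3p, 0.57 to 1.88 for miR-148b-3p, 1.11 to 1.68 for miR-26a-5p and 0.74 to 1.79 for miR-26b-5p, and 0.50 to 1.23 and 0.97 to 1.71 for the miR-148/miR-152 and miR-26 sums. With library totals alone, miR-148a-3p (0.92) and the miR-26 sum (0.81) no longer passed. With totals alone and without the 3 most abundant miRNAs, miR-148a-3p (0.74), miR-26a-5p (0.68) and the miR-26 sum (0.63) no longer passed. Without a count filter, where the median of all miRNAs was 1.31 against -0.11 with it, miR-148b-3p (1.49), miR-26b-5p (1.53) and the miR-148/miR-152 sum (1.32) passed. With DESeq2 miR-26b-5p (1.20) passed too. The cause was not tested.

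In the fit of all RNAs, library totals alone brought miR-148a-3p (4.03), miR-26a-5p (4.02) and miR-26b-5p (3.74) past the threshold, but not miR-148b-3p, and turned miR-152-3p to 0.44. Leaving out a library moved miR-152-3p there between -2.56 and -0.45, and it passed without Fb replicate 1. The ESC minus Fb difference in the log2 ratio of miR-148a-3p to miR-148b-3p ranged from -1.73 to 0.42 and was 0.0040 with a pseudocount of 5 reads. That for miR-26a-5p to miR-26b-5p ranged from -0.34 to 0.34, and the log2 ratio of ESC to Fb mean shares of miR-152-3p in all reads from -0.043 to 1.12.

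The number of miRNAs called, 161 (71 higher in ESC and 90 in Fb), ranged from 103 to 213 when a library was left out. The split was 52 and 103 with totals alone, 45 and 114 with totals alone without the 3 most abundant miRNAs, and 90 and 75 with TMM and library sizes without them. Those scalings moved the median of all miRNAs to -0.52, -0.64 and 0.30. The count of all RNAs called, 354, was 541 with DESeq2, 697 without a filter, 179 with the replicate block, 589 without Fb replicate 1, and 0 by edgeR without any 1 ESC library or without Fb replicate 3, where 560 to 625 had an unadjusted p under 0.05. Outside the members, miR-29c-3p turned to 0.090 with limma-trend and miR-101b-3p to -0.048 with totals alone without the 3 most abundant miRNAs.

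Deviations of same-numbered ESC and Fb libraries had correlations of -0.259, -0.110 and -0.133 over 325 miRNAs, against -0.274 to 0.36 for different numbers. With 3 libraries in each group these values cannot tell whether the numbers pair the libraries. With the replicate block miR-148a-3p (1.39), miR-26a-5p (1.26) and the miR-26 sum (1.36) no longer passed, and 114 miRNAs were called. Depth limits the opposite arms most, as Fb replicate 1 held 49019 miRNA reads. For miR-148b-3p the Fb libraries also spread beyond counting error.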
